A study of Homo sapiens with 9 samples.

Results

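The SOX genes described here were SOX2, SOX3, SOX4, SOX5, SOX6, SOX8, SOX9, SOX11, SOX12 and SOX13. They were taken as every probe of the array whose RefSeq accession maps to any of these genes, 10 of the 19483 genes named on the array. That gave 11 of the 42405 probes, 1 for each gene and 2 for SOX13. All 11 probes were well above background on all 9 arrays. The 10 genes were chosen by name with earlier log2 differences of these arrays in view, among them that of SOX11 between the knock-downs, so that all 3 comparisons count as used in the choice. Their values are given as a description, with standard errors and 95% intervals but without p-values. Where one of these genes is said to pass a threshold, that is a description too and not a test.

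The cells were HEK293, a line derived from human embryonic kidney, infected by retrovirus and kept as stable populations under puromycin selection. The hairpin was shRNA 3 (KD3) or shRNA 4 (KD4), both directed against SmcHD1, or NC5 as the control (CTL). All groups shared the vector pQCXIP-GFP and received no other treatment. There were 3 arrays per group, termed biological triplicates in the methods with no word on separate infections, so that the SDs and intervals may measure only technical spread. Each knock-down rests on a single hairpin and CTL on 1 control hairpin, and off-target effects of the hairpins were not tested.

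The hairpin inserts are shown because they define the groups. No match of their arms to SOX11 or any other transcript was searched for, and their part in the SOX differences was not tested. The inserts are written 5′ to 3′ as the labels give them, with the loop in capitals and the arms of the hairpin on either side of it.
KD3: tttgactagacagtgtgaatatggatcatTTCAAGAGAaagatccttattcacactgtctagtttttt
KD4: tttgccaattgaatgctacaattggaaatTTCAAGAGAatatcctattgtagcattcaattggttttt
CTL: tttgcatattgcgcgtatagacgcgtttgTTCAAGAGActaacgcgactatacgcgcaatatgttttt

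SOX proteins are transcription factors with an HMG box, a domain that binds the minor groove of DNA and bends it. They are sorted into groups by the similarity of that box, and members of a group often act in the same tissues. Group B1 factors (SOX2 and SOX3 here) keep neural progenitors and pluripotent cells undifferentiated, group C factors (SOX4, SOX11 and SOX12) act in neuronal progenitors and developing organs including the kidney, group D factors (SOX5, SOX6 and SOX13) pair through a coiled coil and lack an activation domain of their own, and group E factors (SOX8 and SOX9) act in cartilage, gonad and glia. SmcHD1, a protein with an SMC hinge domain, is known for its part in gene silencing on the inactive X chromosome.

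Promoters are shown for SOX3 and SOX5, which were lower in at least 1 knock-down, and for SOX2, the group B1 relative of SOX3. The RefSeq promoter table (GRCh38.p14, 250 bases before to 50 bases after the start) held entries for 7 of the 10 genes, namely SOX2, SOX3, SOX4, SOX5, SOX6, SOX12 and SOX13. Capitals mark CG dinucleotides, the sites of DNA methylation in human cells.
SOX3, chrX:140505020-140505319, minus strand: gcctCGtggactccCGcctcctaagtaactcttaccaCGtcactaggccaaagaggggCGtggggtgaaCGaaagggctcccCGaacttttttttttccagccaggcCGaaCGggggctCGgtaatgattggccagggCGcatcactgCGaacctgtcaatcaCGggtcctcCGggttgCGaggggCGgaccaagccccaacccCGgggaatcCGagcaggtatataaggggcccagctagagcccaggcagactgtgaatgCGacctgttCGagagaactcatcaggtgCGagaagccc
SOX2, chr3:181711675-181711974, plus strand: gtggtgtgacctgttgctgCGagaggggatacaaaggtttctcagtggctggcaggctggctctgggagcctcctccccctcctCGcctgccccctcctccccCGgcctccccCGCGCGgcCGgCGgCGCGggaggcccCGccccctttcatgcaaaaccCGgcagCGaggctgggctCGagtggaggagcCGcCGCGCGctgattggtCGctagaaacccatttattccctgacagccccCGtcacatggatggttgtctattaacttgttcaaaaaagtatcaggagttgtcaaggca
SOX5, chr12:24562442-24562741, minus strand: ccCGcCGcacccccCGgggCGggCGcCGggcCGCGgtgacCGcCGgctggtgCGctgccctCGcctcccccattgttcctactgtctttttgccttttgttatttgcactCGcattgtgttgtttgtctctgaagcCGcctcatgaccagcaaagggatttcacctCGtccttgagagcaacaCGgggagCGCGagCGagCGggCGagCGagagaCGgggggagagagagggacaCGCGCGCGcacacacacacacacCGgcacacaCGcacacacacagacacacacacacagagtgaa

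The SOX3 and SOX2 promoters each held 20 CG dinucleotides and the SOX5 promoter held 29, against a median of 14 and quartiles of 3 and 28 over all 27305 promoters of the same length. Among the other entries, SOX12 had 54, SOX6 had 22, SOX13 had 15 and SOX4 had 8. A search of both strands for the SOX core letters ACAAT and ACAAAG, which share the letters ACAA while neither contains the other, found ACAAT 2 times in SOX5 and 2 times in SOX6, and ACAAAG 1 time in SOX2. SOX3, SOX4, SOX12 and SOX13 had neither motif in this window. Of all promoters, 28.0% held ACAAT, 16.0% held ACAAAG and 38.0% held at least 1 of them, so that 3 of 7 is a description and marks no site of binding. No methylation was measured on these arrays.

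SMCHD1, the targeted gene, was below each of the 3 CTL arrays on each of the 6 knock-down arrays. For the probe A_23_P38723 the log2 signal was 10.43, 10.44 and 10.43 in CTL, 9.49, 9.39 and 9.34 in KD3, and 8.81, 8.86 and 9.01 in KD4. In KD3 49.1% and in KD4 34.4% of the CTL signal remained, and the other 2 probes gave 51.0% and 51.0% in KD3 and 34.6% and 35.2% in KD4. Per array, 75.2% to 79.8% of probes exceeded background, no spot was saturated, and the number of arrays limits the precision.

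SOX11, a group C factor of developing neurons and kidney, was the SOX gene with the widest differences, low in CTL, intermediate in KD3 and high in KD4. Its log2 signal was 4.86, 4.99 and 4.82 on the CTL arrays. It was 7.001, 6.96 and 6.85 on the KD3 arrays and 10.62, 10.56 and 10.63 on the KD4 arrays. The 3 groups did not overlap, and the largest SD within a group was 0.0867 (n = 3, CTL).

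The mean log2 signal of SOX11 was 4.89 in CTL, 6.94 in KD3 and 10.60 in KD4. The log2 difference from CTL was 2.05 in KD3 (SE 0.0735, 95% interval 1.88 to 2.22), a 4.14-fold higher signal. In KD4 it was 5.71 (SE 0.0735, 95% interval 5.55 to 5.88), a 52.5-fold higher signal. KD4 lay above KD3 by 3.66 on the log2 scale (95% interval 3.50 to 3.83), which is 12.7-fold. In bulk RNA, more signal per cell and more cells with signal cannot be told apart. The 3 differences passed both thresholds used for every probe, a Benjamini-Hochberg adjusted p under 0.05 from limma and a fold of at least 1.8. Because SOX11 was chosen with these comparisons in view, its passing is a description.

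Of the 32276 probes tested, 43 lay further above CTL than SOX11 in KD3, 4 lay further above CTL in KD4, and 1 lay further above KD3 in KD4. With normexp background correction, which adds an offset of 50 to every signal and so shrinks the differences of dim probes, the log2 differences were 1.05 in KD3 and 4.19 in KD4, and KD4 lay 3.14 above KD3. The arrays were on 2 slides with all groups on each. Slide 1 held 1 KD3, 2 KD4 and 2 CTL arrays, and slide 2 held 2 KD3, 1 KD4 and 1 CTL array. Some differences within a slide therefore rest on single arrays, such as KD4 against CTL on slide 2. Within slide 1 the differences were 2.06, 5.69 and 3.64, and within slide 2 they were 2.07, 5.76 and 3.69. SMCHD1 was also lower in KD4 than in KD3, by -0.51 on the log2 scale, and its part in the SOX11 difference was not tested.

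**Figure D1:**
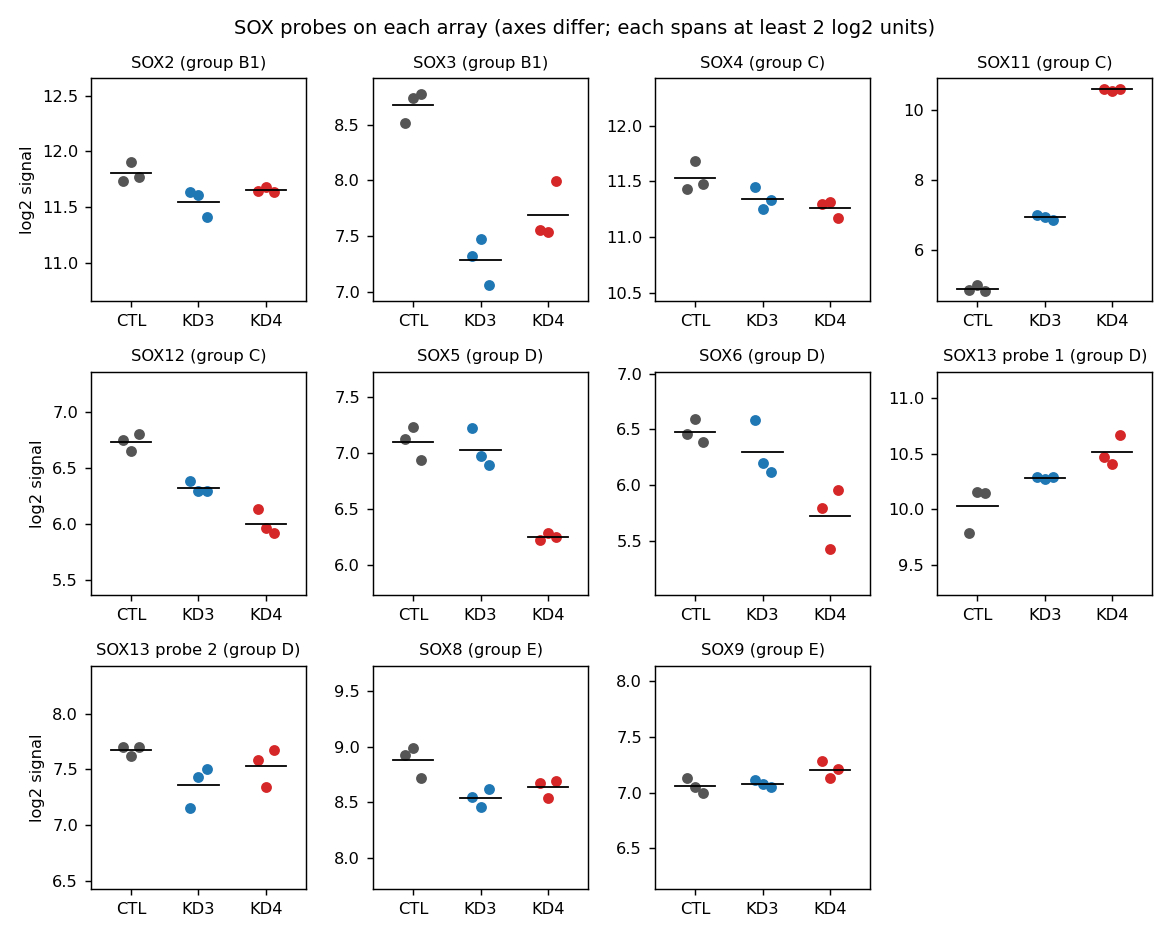
Log2 signal of the 11 SOX probes on each array. Points are arrays, black lines are group means, and the vertical axes differ between panels. SOX11 separates CTL, KD3 and KD4 with means of 4.89, 6.94 and 10.60, SOX3 is lower in both knock-downs, and SOX5 is lower on the KD4 arrays.

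The other group C genes did not follow SOX11. SOX12, which overlaps with SOX4 and SOX11 in developing tissues, had log2 signals of 6.76, 6.65 and 6.81 in CTL, 6.38, 6.30 and 6.30 in KD3, and 6.13, 5.96 and 5.92 in KD4. Every knock-down array lay below every CTL array, and every KD4 array lay below every KD3 array. The log2 difference from CTL was -0.41 in KD3 (95% interval -0.60 to -0.23) and -0.73 in KD4 (95% interval -0.92 to -0.55), less than the fold threshold.

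SOX4, a factor of progenitors in many tissues, lay between 11.17 and 11.68 on all 9 arrays. Its log2 difference from CTL was -0.18 in KD3 (95% interval -0.39 to 0.03) and -0.27 in KD4 (95% interval -0.48 to -0.06). The KD3 and CTL arrays overlapped for SOX4, and the KD4 and CTL arrays did not. SOX11 was thus the group C gene that was higher in the knock-downs, while SOX4 and SOX12 had negative differences in both.

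Among the group B1 genes, SOX3 was lower in both knock-downs. SOX3 lies on the X chromosome and is needed for the development of the hypothalamus and pituitary. Its log2 signal was 8.51, 8.74 and 8.77 in CTL, 7.33, 7.47 and 7.06 in KD3, and 7.55, 7.54 and 7.99 in KD4. No knock-down array reached the lowest CTL array, and every KD4 array lay above every KD3 array.

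The log2 difference of SOX3 from CTL was -1.39 in KD3 (SE 0.153, 95% interval -1.74 to -1.04) and -0.98 in KD4 (SE 0.153, 95% interval -1.33 to -0.63). In KD3 38.2% and in KD4 50.7% of the CTL signal remained, and both differences passed both thresholds. KD4 lay above KD3 by 0.41 (95% interval 0.06 to 0.76), which passed neither threshold. With normexp the KD4 difference was -0.80, under the fold threshold. Within the slides SOX3 differed from CTL by -1.28 and -1.32 in KD3, and by -0.99 and -0.96 in KD4.

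SOX2, a core factor of pluripotent and neural stem cells, differed less. Its log2 signal was 11.74, 11.90 and 11.77 in CTL, 11.63, 11.61 and 11.41 in KD3, and 11.64, 11.68 and 11.64 in KD4. The knock-down arrays all lay below the CTL arrays, but by small amounts. The log2 difference was -0.25 in KD3 (95% interval -0.44 to -0.07) and -0.15 in KD4 (95% interval -0.34 to 0.04). Neither passed a threshold, and the intervals lie inside the 1.8-fold limits.

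In group D, SOX5 and SOX6, which act together in cartilage formation, had lower signals in KD4. For SOX5 the log2 signal was 7.13, 7.24 and 6.94 in CTL, 7.22, 6.97 and 6.89 in KD3, and 6.22, 6.28 and 6.25 in KD4. The KD3 arrays overlapped with CTL, and all KD4 arrays lay below both other groups. The log2 difference from CTL was -0.07 in KD3 (95% interval -0.32 to 0.17) and -0.854 in KD4 (SE 0.106, 95% interval -1.10 to -0.61).

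The SOX5 difference in KD4 passed the fold threshold, a log2 value of 0.848, by little. It fell short of that threshold without KD4 replicate 1 (-0.84), without CTL replicate 1 (-0.84) or without CTL replicate 2 (-0.79), and with 75th percentile scaling (-0.79) or normexp (-0.54). KD4 lay below KD3 by -0.78 for SOX5 (95% interval -1.02 to -0.54), with an adjusted p under 0.05 and a fold under 1.8. Without KD3 replicate 3 that difference was -0.85 and passed both thresholds.

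SOX6 had log2 signals of 6.46, 6.60 and 6.38 in CTL, 6.58, 6.20 and 6.12 in KD3, and 5.80, 5.43 and 5.95 in KD4. Again the KD4 arrays lay below all others, and KD3 overlapped with CTL. The log2 difference from CTL was -0.18 in KD3 (95% interval -0.54 to 0.18) and -0.75 in KD4 (95% interval -1.12 to -0.39), under the fold threshold. Without KD4 replicate 3 it was -0.87 in KD4 and passed both thresholds.

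The 2 probes of SOX13, a further group D gene, disagreed in sign. The brighter probe, A_33_P3325110, differed from CTL by 0.25 in KD3 (95% interval 0.00 to 0.51) and by 0.49 in KD4 (95% interval 0.23 to 0.74). The dimmer probe, A_23_P85703, differed by -0.31 in KD3 (95% interval -0.57 to -0.05) and by -0.14 in KD4 (95% interval -0.41 to 0.12). No direction is given for SOX13.

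The group E genes stayed within narrow limits. SOX8 lay between 8.46 and 8.99 on the 9 arrays, with log2 differences from CTL of -0.34 in KD3 (95% interval -0.54 to -0.13) and -0.24 in KD4 (95% interval -0.45 to -0.04). SOX9, a regulator of cartilage, testis and kidney branching, lay between 6.99 and 7.28. Its log2 difference was 0.02 in KD3 (95% interval -0.14 to 0.18) and 0.15 in KD4 (95% interval -0.01 to 0.31), and the sign in KD3 changed between alternatives, from -0.05 within slide 2 to 0.06. No group E gene passed both thresholds.

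**Figure D2:**
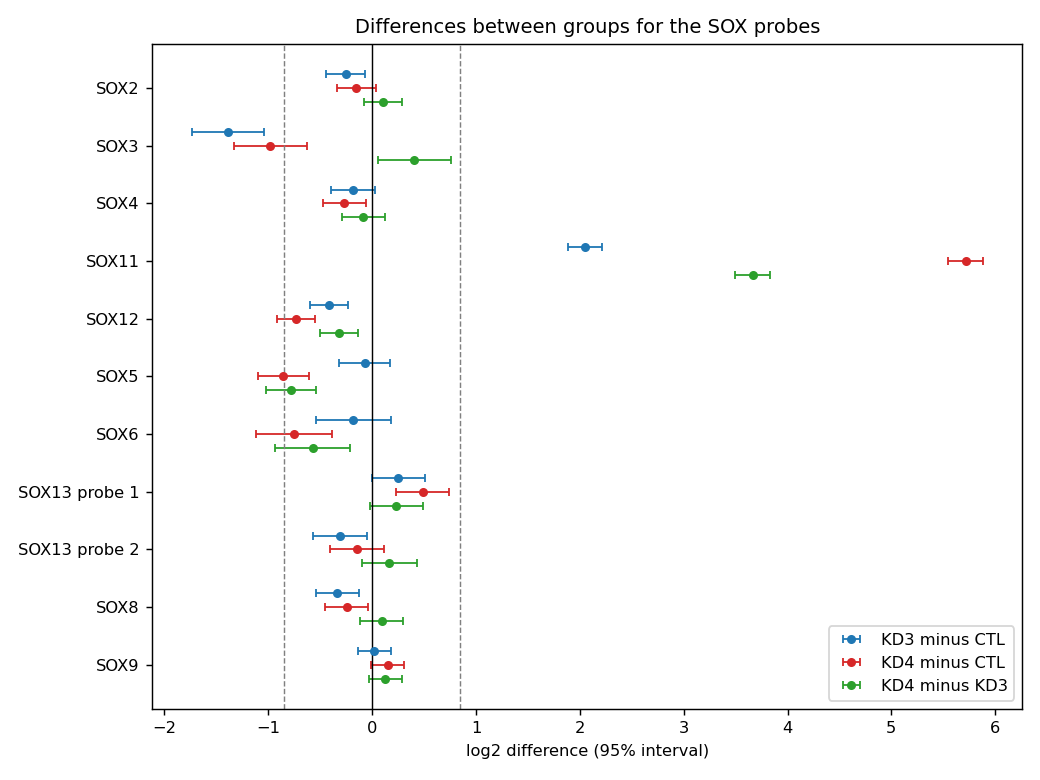
Log2 differences of the 11 SOX probes between groups, as points with 95% intervals from limma. Dashed lines mark a fold of 1.8, a log2 value of 0.848. SOX11 lies far to the right in each comparison, with 2.05, 5.71 and 3.66, and most other probes lie between the dashed lines.

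Over the 11 probes, KD3 against CTL had 1 probe past both thresholds upward (SOX11) and 1 downward (SOX3), 18.2% of the probes, where 3.32% of all tested probes were past them, 1.12% upward and 2.20% downward. KD4 against CTL had 1 upward (SOX11) and 2 downward (SOX3 and SOX5), 27.3%, against 4.60% of all tested probes, 1.42% upward and 3.19% downward. KD4 against KD3 had 1 upward (SOX11) and 0 downward, 9.09%, against 0.443% of all tested probes, 0.204% upward and 0.239% downward. Both knock-downs share the CTL arrays. Because the genes were chosen with these results known, nothing is read from these shares.

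The median log2 difference of the 11 probes was -0.18 in KD3 and -0.24 in KD4 against CTL, and 0.10 in KD4 against KD3. Over all tested probes the medians were 0.01, 0.04 and 0.02. The groups did not overlap for 7 probes in KD3 against CTL, where this held for 36.0% of all tested probes. They did not overlap for 9 probes in KD4 against CTL, where it held for 44.9% of all, and for 8 probes in KD4 against KD3, where it held for 29.0% of all.

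Of 9 further SOX genes on the array, 4 had a tested probe, and 1 of them passed both thresholds. These genes, too, were listed with earlier results of these data known, so that their p-values are a description. SOX21, a group B relative of SOX2 that acts as a repressor, had log2 signals of 5.09, 5.44 and 5.77 in CTL, 5.43, 5.03 and 4.96 in KD3, and 4.43, 4.07 and 4.39 in KD4. It was lower in KD4 by -1.14 on the log2 scale (SE 0.193, adjusted p = 0.00321 from limma), and in KD3 the difference was -0.29 (adjusted p = 0.347 from limma). The KD4 call was lost with normexp (-0.45). Against KD3, the SOX21 difference in KD4 was -0.85, short of the adjusted p threshold (limma adjusted p = 0.0608), and it passed without CTL replicate 1, without CTL replicate 3 and with the filter of all 9 arrays. SOX10, SOX15 and SOX30 were tested and passed in no comparison, and SOX1, SOX7, SOX14, SOX17 and SOX18 were not well above background on every array of any group.

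Of 9 listed RNAs transcribed at SOX loci, 2 were found on the array by name. SOX2-OT, the long RNA whose intron holds SOX2, was well above background on 4 of 9 arrays and was not tested. SILC1, a neighbour of SOX11, was tested and differed from CTL by -0.17 in KD3 and 0.29 in KD4, passing in no comparison.

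The 2 nearest tested genes on each side were examined for SOX11, SOX3 and SOX5. Beside SOX11 on chromosome 2, LINC01249 was higher in KD4 than CTL by 0.91 on the log2 scale (adjusted p = 0.0309 from limma), and CMPK2, a mitochondrial nucleotide kinase, was higher in KD4 than KD3 by 1.43 (adjusted p = 0.00235 from limma). Against CTL, CMPK2 differed by -0.77 in KD3 and by 0.66 in KD4, both under the fold threshold. COLEC11 and SILC1 passed in no comparison. Around SOX3, the genes MCF2, LINC00632 and LDOC1 passed in none of the 3 comparisons. Beside SOX5, ETNK1, an ethanolamine kinase, was higher in KD3 by 0.93 (limma adjusted p = 0.000207) and in KD4 by 0.87 (limma adjusted p = 0.000245), and IRAG2 was higher in KD4 by 1.14. IRAG2 was well above background on 1 of 3 CTL, 2 of 3 KD3 and 3 of 3 KD4 arrays, so that it was tested through KD4, where it was high, and the size of its difference rests on CTL signal near background. C2CD5 and BCAT1 passed in none.

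Among 16068 named genes outside the SOX family, represented by their brightest tested probe, the 5 whose log2 signals over the 9 arrays were most like those of SOX11 were CYSLTR1 (Pearson r of 0.998), MT1F (0.997), PCDH11Y (0.996), FBXL7 (0.996) and KIFC1 (0.984). The correlation is a description over 9 arrays that share their 3 groups. CYSLTR1, a receptor for leukotrienes, differed from CTL by 1.43 in KD3 and 3.54 in KD4. PCDH11Y, a protocadherin probe that the near-identical X copy PCDH11X may share, differed by 1.56 and 4.22. MT1F, a metallothionein with close paralogues, differed by 0.37 and 1.06, and KIFC1, a mitotic kinesin, by 0.18 and 0.54.

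For SOX3 the 5 most alike genes were SIRPA (0.987), LHX1 (0.982), ROR2 (0.981), KIAA0408 (0.981) and SORL1 (0.979). KIAA0408 differed from CTL by -1.90 in KD3 and -1.44 in KD4, wider than SOX3. LHX1, a homeobox factor of the early kidney, differed by -0.57 and -0.33, less than SOX3. SIRPA, a receptor for CD47, differed by -0.60 and -0.44.

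**Figure D3:**
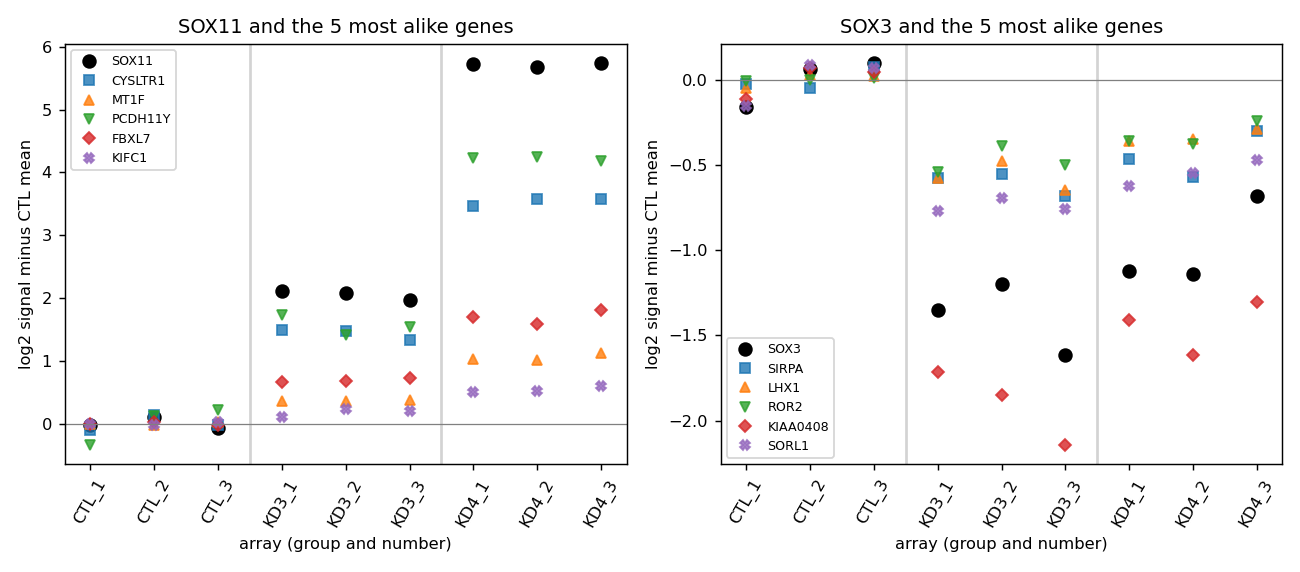
Log2 signal minus the CTL mean on each array for SOX11 (left) and SOX3 (right), with the 5 genes of highest Pearson r over the 9 arrays. The genes share the order of the groups and differ in size, from 5.71 for SOX11 to 0.54 for KIFC1 in KD4, and SOX3 lies between KIAA0408 and the other 4 genes on its side.

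Genes that SOX factors work with or act on were described as lists. The lists were chosen with earlier results of these data known, so that the p-values of their genes are a description and not a test. Of 25 partners and targets of group B1 factors, 24 were tested, and 0 passed in KD3 on their brightest probe by limma. Over all 32276 probes, 3.32% passed both thresholds in that comparison, and limma's unadjusted p alone was under 0.05 for 10630. The share past both thresholds was 4.60% in KD4 against CTL and 0.443% in KD4 against KD3, to be set beside the counts of each list. GLI2, an effector of Hedgehog signalling, was the 1 gene that passed in KD4, lower by -0.94 on its brightest probe (adjusted p = 0.000354 from limma), with -0.71 in KD3 under the fold threshold. The call for GLI2 in KD4 was lost without CTL replicate 1 and with normexp (-0.77), while without CTL replicate 2 the list had 2 genes past both thresholds in KD4, 1 in each direction. A dimmer GLI2 probe, A_33_P3358462, gave -0.86 in KD3 and -0.90 in KD4 and passed both thresholds in each, and another gave 0.31 and 0.27, so that the probes disagree. The median log2 difference of the list was -0.06 in KD3 and -0.02 in KD4.

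Of 15 neuronal and developmental targets of group C factors, 13 were tested, and 1 passed in KD4 and 0 in KD3. DCX, a microtubule protein of migrating neurons encoded on the X chromosome, had log2 signals of 5.28, 5.47 and 5.26 in CTL, 5.57, 5.59 and 5.80 in KD3, and 8.30, 8.36 and 8.33 in KD4. KD4 stood apart from both other groups. DCX was higher in KD4 by 2.99 on the log2 scale against CTL (SE 0.0887, adjusted p = 5.57e-07 from limma) and by 2.67 against KD3 (adjusted p = 8.49e-06 from limma). In KD3 its difference was 0.32 (adjusted p = 0.0375 from limma), under the fold threshold.

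The second DCX probe gave 0.19 in KD3 and 2.96 in KD4, with 2.77 for KD4 against KD3. With normexp the DCX difference in KD4 was 1.92. The other 12 tested targets passed in no comparison, and their directions were mixed. MEX3A differed most widely from CTL among them, at -0.79 in KD3 and -0.74 in KD4. TUBB3, a neuronal tubulin, was at -0.67 and -0.16. STMN2, a growth cone protein, was at 0.35 and 0.63, and HEXIM1 at 0.49 and 0.33. The median of the list was -0.13 in KD3, near 0 in KD4 (-0.00167), and 0.09 between the knock-downs.

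Of 23 cartilage and glial targets of group D and E factors, 20 were tested and 1 passed, in opposite directions. MATN4, a matrilin of the extracellular matrix, had log2 signals of 5.54, 5.63 and 5.61 in CTL, 2.86, 3.92 and 3.32 in KD3, and 6.38, 6.88 and 6.20 in KD4. It was well above background on 1 of the 3 KD3 arrays and on all others, so that the sizes and p-values of both comparisons with KD3 rest on signal near background and are not exact. The fitted log2 difference was -2.23 in KD3 (limma adjusted p = 0.00069), 0.89 in KD4 (limma adjusted p = 0.0325) and 3.12 for KD4 against KD3 (limma adjusted p = 0.0011).

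For MATN4 the KD4 call was lost under 9 of 18 alternatives, among them leaving out KD4 replicate 1 or 2 or any of the CTL replicates 1, 2 and 3, and normexp, where the log2 difference was 0.48. With normexp MATN4 differed by -0.54 in KD3, under the fold threshold, and KD4 lay 1.02 above KD3. Without CTL replicate 2 the list had 4 genes past both thresholds in KD3 (1 higher and 3 lower) and 2 lower in KD4, and without KD3 replicate 2 it had 2 in KD3. COL2A1, the defining collagen of cartilage, was well above background on 3 of 9 arrays and was not tested. The summed signal of the chondrocyte markers COL2A1 and ACAN was 106.5 to 110.9 in CTL, 89.2 to 96.7 in KD3 and 102 to 134.9 in KD4, lowest in KD3 as MATN4 was. The summed signal of fibroblast markers was also lowest in KD3, with 538.1 to 596.5 against 677.1 to 799.2 in CTL and 716.4 to 754.6 in KD4. For glia markers it was 67.1 to 81.8 in KD3, 90.8 to 138.9 in CTL and 72.9 to 94.4 in KD4. Blood and endothelial markers did not share this order, and their groups overlapped. The blood sum was 387.6 to 410.8 in KD3, 351 to 430.9 in CTL and 390.6 to 455.9 in KD4. The endothelial sum was 112.1 to 150.6 in KD3, 136.1 to 142.7 in CTL and 131 to 151.6 in KD4. The part of these markers in the MATN4 result was not tested.

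Of 17 genes of the β-catenin and TCF/LEF pathway, whose proteins SOX factors bind or compete with, 16 were tested. DKK1, a secreted Wnt antagonist, was the 1 gene that passed, with log2 signals of 6.80, 6.62 and 6.61 in CTL, 5.75, 5.58 and 5.69 in KD3, and 5.63, 5.70 and 5.21 in KD4. It was lower by -1.003 in KD3 (SE 0.131, limma adjusted p = 0.00125). In KD4 it was lower by -1.16 (limma adjusted p = 0.000465), and its signals did not overlap between knock-down and CTL. With normexp the differences were -0.57 and -0.64, under the fold threshold. The median of the list was -0.20 in KD3 and -0.13 in KD4.

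**Figure D4:**
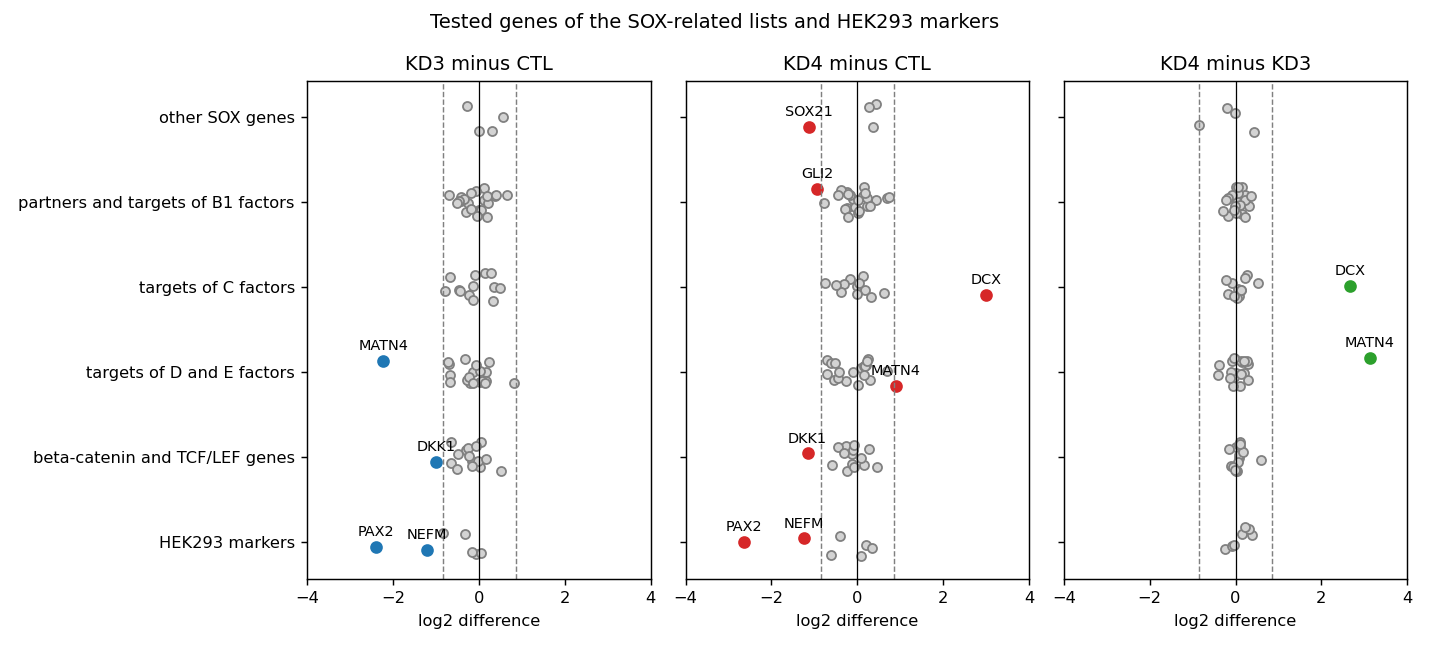
Log2 differences of the tested genes in the lists of SOX-related genes and of HEK293 markers, with a panel for each comparison. Coloured and named points passed an adjusted p under 0.05 and a fold of 1.8 (dashed lines), grey points did not. DCX (2.99) stands to the right in KD4, MATN4 lies at -2.23 in KD3 and at 0.89 in KD4, and DKK1 lies at -1.003 and -1.16.

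The 7 markers of HEK293 cells, which express kidney and neuronal genes, were well above background on all 9 arrays. The markers were chosen with earlier results of these data known, so that their p-values are a description. PAX2, a factor of the developing kidney, passed as lower on its brightest probe, with -2.41 for KD3 (limma adjusted p = 2.33e-06) and -2.65 for KD4 (limma adjusted p = 5.57e-07), while its dimmer probe gave -0.01 and 0.06. NEFM, a neurofilament subunit, was lower by -1.21 (limma adjusted p = 0.00305) and -1.24 (limma adjusted p = 0.002), with both calls lost with normexp (-0.43 and -0.49). Under the fold threshold, INA was lower by -0.84 in KD3 and -0.61 in KD4, and NEFL by -0.33 and -0.41. VIM, KRT8 and KRT18 differed by -0.08, -0.17 and 0.04 in KD3 and by 0.08, 0.21 and 0.34 in KD4. The summed signal of the 7 markers was 145000 to 157200 in CTL, 134200 to 149300 in KD3 and 155400 to 159700 in KD4. VIM was by far the brightest, with a mean log2 signal of 16.89 in CTL against 14.03 for KRT18, so that the sum says little about the dimmer markers. Of 15 markers of fibroblasts, endothelium, blood, cartilage and glia, 9 were tested, 0 passed in any comparison and 3 (COL1A2, THY1 and PECAM1) were above background on no array.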

How the data were processed

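Gene expression was measured on Agilent one-color arrays (SurePrint G3 8x60K, Cy3) in 3 groups of HEK293 cells, 3 arrays each. The authors deposited the spot intensity of each array from Agilent Feature Extraction 10.10 (10.10.1.1 per the file headers), where the green processed signal is already background-subtracted. A further deposited table holds log2 values that the authors quantile normalized in GeneSpring (the methods write quintile, read here as quantile). That table was used as an alternative. Its columns had medians of 6.52, and it differed from the values computed here by a median of -0.07 with r of 0.99998, so that its scale and direction are known.

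Control spots and outlier-flagged spots (260 to 634 of 58717 per array) were left out, log2 processed signals were quantile normalized over the 9 arrays, and replicate spots were averaged. A probe entered the fit if some group had it well above background on all of its arrays (32276 of 42405; 21 lacked a value on some array). Probes were named through their RefSeq accession (25422 probes) with a gene table of GRCh38.p14, while the array design cites hg19, so no gene coordinates from that table are printed. limma 3.58.1 in R 4.3.3 was fitted to all 9 arrays with a mean per group. A probe passed with a Benjamini-Hochberg adjusted p under 0.05, over all tested probes, and a fold of at least 1.8. The fit was tested on simulated data. Alternatives were 75th percentile scaling, normexp with an offset of 50, the authors' table, other filters on dim signal, the t-test of the methods both adjusted and unadjusted, only the groups compared, a replicate or slide block, values within slides, other fold thresholds and leaving out each array.

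The SOX genes, the lists of related genes and the markers were chosen with earlier results of these data known. Every SOX gene is named. Within a list, up to 4 genes with the largest log2 difference among those past both thresholds are named on their brightest probe. Neighbours are the 2 nearest genes with a tested probe on each side of a SOX gene that passed (1 of them is not reported here), and 5 most alike genes are given for SOX11 and SOX3. TUBB3, STMN2, MEX3A, HEXIM1, COL2A1, ACAN, COL1A2, THY1, PECAM1, INA, NEFL, VIM, KRT8 and KRT18 were named after their values were seen.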

Additional observations from a re-analysis of the deposited data

Results flagged for a closer look

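The effects of both SmcHD1 hairpins on SOX11 differed. By direct comparison KD4 lay above KD3 by 3.66 on the log2 scale (SE 0.0735, 95% interval 3.50 to 3.83), with each of the 3 KD4 arrays (10.56 to 10.63) above each of the 3 KD3 arrays (6.85 to 7.001). SOX11 was chosen with this difference known, so that it is a description.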

How the results depend on the processing

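SOX11 passed both thresholds against CTL in KD3 (1.05 to 2.10 on the log2 scale) and KD4 (4.19 to 5.76) under all 19 tested alternatives, and SOX5, SOX6 and SOX12 had negative differences in KD4 under all of them. As the SOX genes were chosen with these comparisons in view, this describes how the values depend on the processing and is no test of the genes. The t-test of the methods, adjusted by Benjamini-Hochberg, left 1 SOX probe past the thresholds in KD3, 1 in KD4 and 0 in KD4 against KD3. By limma, the unadjusted p in KD4 against KD3 was under 0.05 for 6244 of all probes, a looser measure than both thresholds. Under the adjusted t-test SOX3 in KD3 (-1.39) and KD4 (-0.98), SOX5 in KD4 and SOX11 in KD4 against KD3 (3.66) missed the adjusted p threshold. Their log2 differences were equal to those of limma. Calls in KD4 against CTL of GLI2 (adjusted p = 0.0858), DKK1 (0.0732), SOX21 (0.0868), NEFM (0.0896) and MATN4 were lost under it too, as were those of NEFM and MATN4 in KD3 and of DCX and MATN4 in KD4 against KD3, while the unadjusted t-test called SOX21 in KD4 against KD3. With normexp 1 SOX probe passed in KD4, and SOX3 there was -0.80, under the fold threshold. Without a fold threshold 4 probes passed in KD3, 6 in KD4 and 2 in KD4 against KD3, and with a fold of 1.5 it was 5 in KD4 and 2 in KD4 against KD3. Leaving out each array in turn gave 1 to 2 probes in KD4 against KD3. Arrays of the same replicate number correlated between -0.08 and 0.14 in their deviations, with 3 of 9 pairs over 0.1, so that the numbers were not taken as pairs. With the replicate block 2, 3 and 1 SOX probes passed in KD3, KD4 and KD4 against KD3, as without it. No share of all tested probes past the thresholds is given for the alternatives, so that nothing about the genes is read from the counts under them. Among the lists, the counts in KD4 ranged from 0 to 2 for the β-catenin genes, the B1 list and the D and E list, and from 1 to 2 for the group C targets. The D and E list ranged from 0 to 4 in KD3, and all other list counts stayed between 0 and 1. The cause of these shifts was not tested.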
